A study of Homo sapiens with 6 samples.

Results

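The 96 genes described here are the nuclear-encoded genes of oxidative phosphorylation in a table of 39012 genes. They were chosen by symbol: rows that start with NDUF, UQCR, COX4, COX5, COX6, COX7, COX8 or ATP5, and SDHA, SDHB, SDHC and SDHD. Of 271 such rows, 8 with a hyphen and 167 with a pseudogene ending were left out. The 96 comprise 37 genes of complex I, 4 of complex II, 9 of complex III, 18 of complex IV, 18 of complex V and 10 assembly or other factors that share these prefixes. RNA-seq was made from 6 libraries of Jurkat, an established line from a human T cell leukaemia. Of these, 3 came from control cells labelled EV and 3 from cells with stable overexpression of SCML4, a Polycomb-group protein. Both groups had been treated for 6 h with the phorbol ester PMA at 100 ng/ml and the calcium ionophore ionomycin at 1 µM, so no unstimulated cells were compared. The labels do not say whether each line is 1 clone or a pool, nor whether replicates were separate cultures. The p-values thus rest on the scatter of these 6 libraries, which may be technical. The labels also use the words ouabain-induced for the cells but name no ouabain among the treatments. All 13 T cell line markers in the table, CD3D, CD3E and LCK among them, had reads in every library. Their summed level was 4388 to 4550 CPM in EV and 4599 to 4796 in SCML4, with 0 of 13 past the threshold below, and their part in the results was not tested.

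Oxidative phosphorylation makes most of the ATP of a resting cell at the inner mitochondrial membrane. Complexes I and II take electrons from NADH and succinate and pass them to ubiquinone, complex III passes them to cytochrome c, and complex IV passes them to oxygen. Complexes I, III and IV pump protons, and complex V, the ATP synthase, lets the protons flow back and makes ATP. Most subunits are encoded in the nucleus and imported, but complexes I, III, IV and V also contain subunits encoded by mitochondrial DNA, and complex II contains none. Activated T cells are known for running glycolysis alongside respiration.

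No member passed the test for a difference between the SCML4 and EV libraries. Of the 90 members above the filter, a mean of at least 0.5 FPKM, 0 had an adjusted p under 0.05 in limma-trend, and 0 of all 15357 genes tested did (0.0%). The smallest adjusted p of a member was 0.905. An unadjusted p under 0.05 was found in 5 members (5.56%) and in 781 of all genes (5.09%). The 5 were NDUFA1, NDUFB7, NDUFS8 and ATP5PD, each with higher values in SCML4, and NDUFS1, with lower values. In limma-voom on the recovered reads with library weights, 0 of 89 members passed the adjusted threshold, and 14 of 14149 genes did (0.0989%). In that fit an unadjusted p under 0.05 was found in 12 of 89 members and in 1150 of the 13477 genes tested in both fits. The difference, SCML4 minus EV on the scale log2(FPKM + 1), was positive in 56 of 90 members (62.2%) and in 51.7% of all genes. Its median was 0.05 over the members and 0.01 over all genes. Without EV replicate 1, 54 of 90 members were positive with a median of 0.04, and with reads corrected for GC content and length 52 of 89 were, with a median of 0.03. The 95% interval of a member reached a median of 0.31 to either side of its difference. Across the 90 members the difference correlated with the GC content of the transcript at a Spearman rho of 0.34, and at 0.02 without EV replicate 1, against 0.31 and 0.03 across all genes. All these points share the same 6 libraries, and the part of GC content in the differences was not tested. The plot of differences shows each member with its interval.

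**Figure D1:**
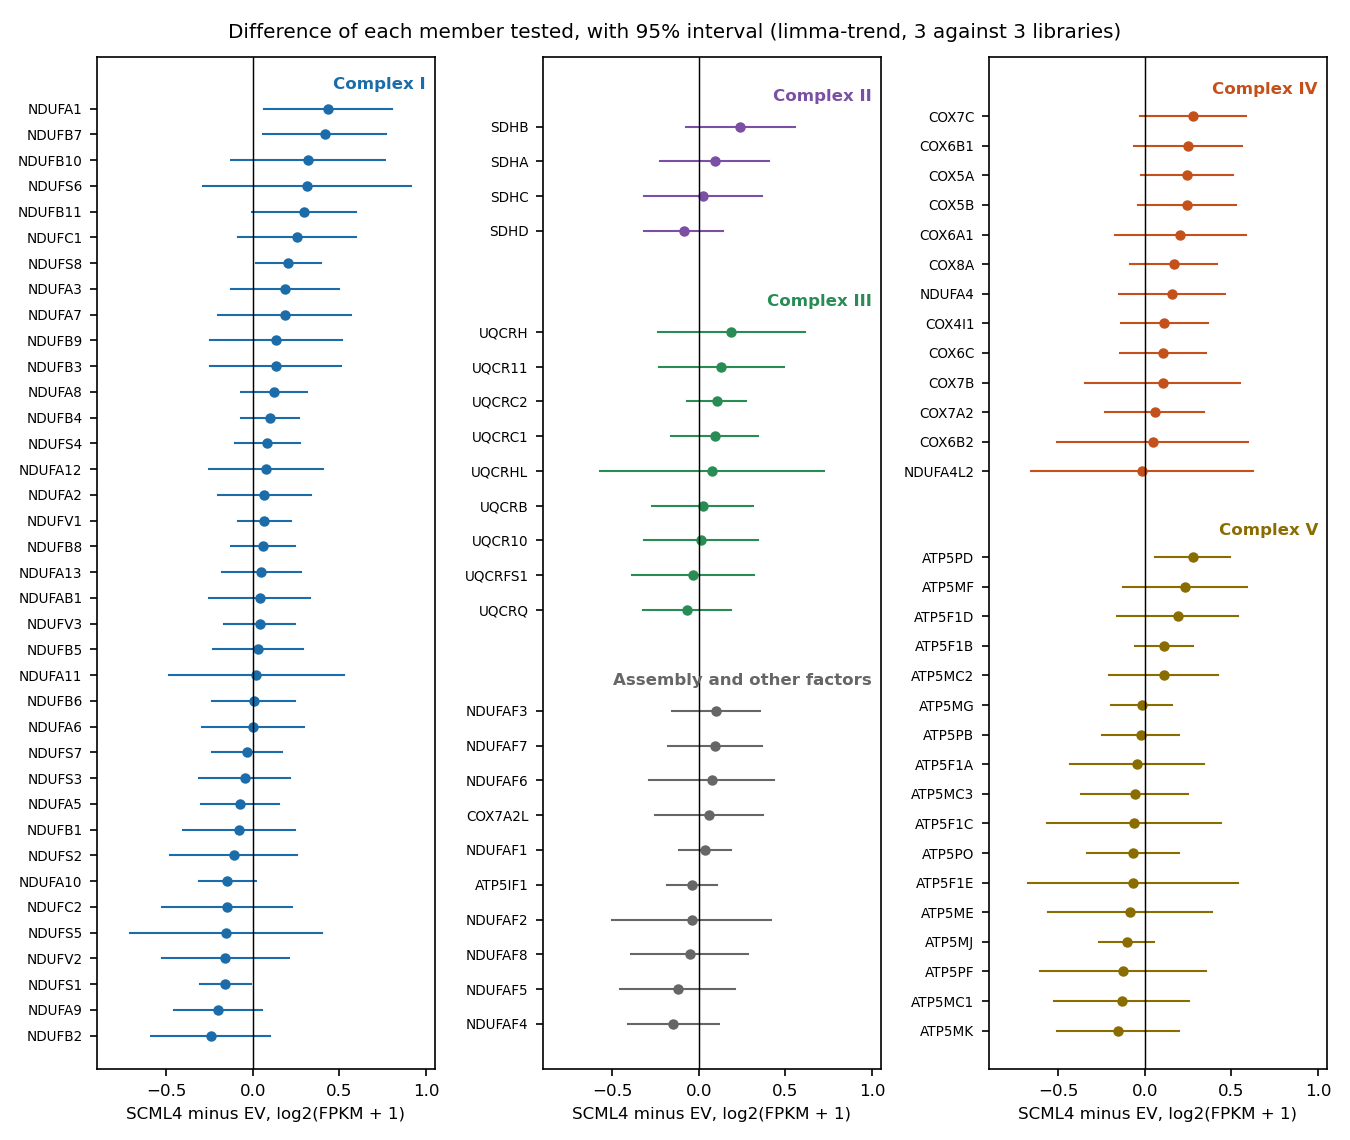
Difference between the SCML4 and EV libraries on the log2(FPKM + 1) scale (x axis) for each of the 90 members tested, grouped by complex. Points are limma-trend estimates and bars their 95% intervals; most bars cross 0, and complex IV has 12 of its 13 points to the right of 0.

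SCML4 itself, the check of the labels, had 7, 2 and 1 reads in the EV libraries and 570, 657 and 506 in the SCML4 libraries. Libraries held 8953671 to 10336597 reads, worked out from the steps in the deposited FPKM, and a level in CPM is the number of reads per 1000000 of the library. Where a gene has no read, up to 3 reads remain possible, which is 0.29 to 0.335 CPM depending on the library and covers counting error only. The library of EV replicate 1 was unlike the other 5. Along the first principal component it lay at -38.6 and the others at 0.35 to 11.6, and its deviations per gene correlated with GC content at a Spearman rho of -0.52 across 13526 genes, against 0.05 to 0.30 in the others. The replicates of a group differed by more than sampling noise in every pair, the chi-square per gene being 2.59 to 11.1. Of 15 markers of other cells, such as B, myeloid, erythroid, epithelial and fibroblast cells, 7 were at 0 in every library, LYZ, HBB, EPCAM and DCN among them, and only CD79A exceeded 10 CPM. The summed level of those 15 was 25.3 to 36.2 CPM in EV and 33.9 to 37.1 in SCML4. These are bulk libraries, in which fewer cells with a transcript and less of it per cell cannot be told apart.

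Of the 96 members, 89 had at least 10 reads on average and 7 had fewer. Levels are compared between genes as CPM per kb of the principal transcript in GENCODE 29, since the gene lengths behind the deposited FPKM were not those of the named genes. The length implied by the FPKM correlated with a gene's exonic length at a Spearman rho of -0.02 across 93 members. For complex I genes the median implied length was 107 bases where the median transcript has 958, and for complex II it was 8577 where the median transcript has 1914.5. The deposited values therefore put complex I at a median of 349 FPKM and complex II at 2.65, while per kb of transcript the medians were 30.7 and 14.5 CPM. Medians of the other complexes were 35.7 CPM per kb in complex III, 22.9 in complex IV and 28.2 in complex V, each over genes with at least 10 reads on average. On that scale the highest member was ATP5F1B, the catalytic beta subunit of the ATP synthase, at 331 CPM per kb.

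Within every complex, levels per kb spread widely although the subunits are built into the complex in fixed numbers. In complex I the range ran from NDUFA7 at 3.47 CPM per kb to NDUFS5 at 164, a ratio of 47.4. In complex II it ran from the membrane anchor SDHC at 0.909, whose principal transcript of 13566 bases is the longest of all members, to the other anchor SDHD at 41.2. Complex III had the narrowest range, from UQCRB at 9.17 to UQCRH at 88.4, a ratio of 9.64. In complex IV the range among genes with at least 10 reads ran from NDUFA4L2 at 3.69 to COX4I1 at 156. NDUFA4L2 is an alternative isoform, so a fixed number of it per complex is not implied. In complex V the range ran from ATP5F1E at 4.15 to ATP5F1B. NDUFA7, the lowest of complex I, had 75.9% of its transcript under exons of another gene. Such overlaps, the long untranslated ends of some transcripts and the pseudogene rows described further on all enter these values. Their part was not tested.

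**Figure D2:**
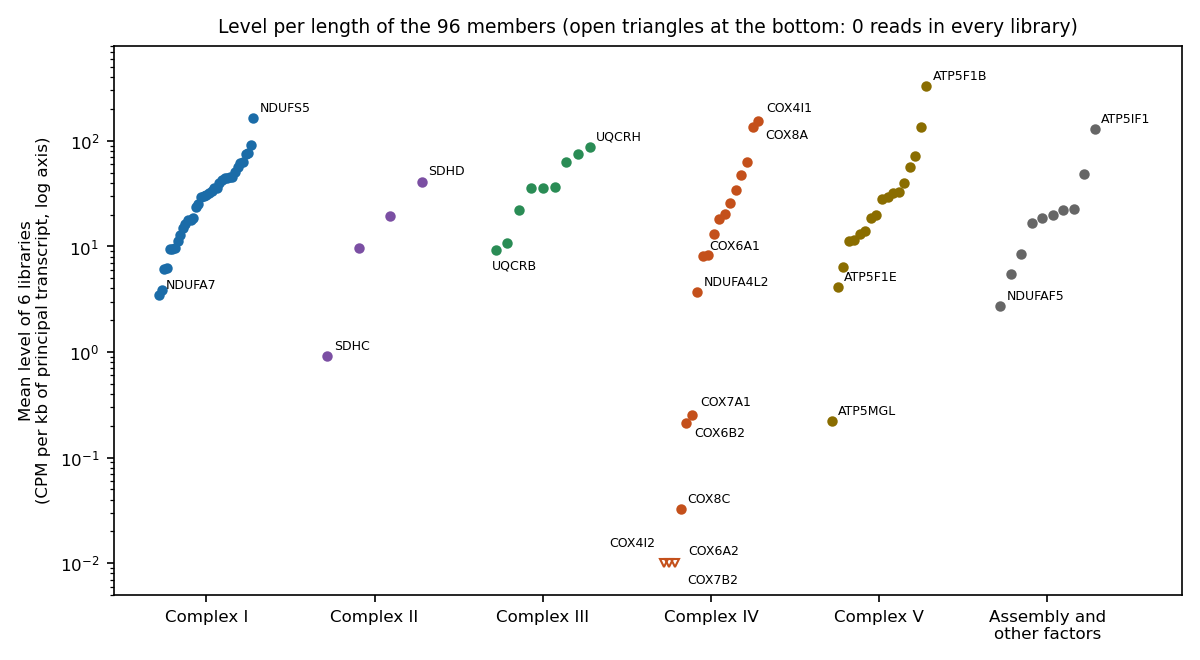
Mean level over the 6 libraries of each of the 96 members, in CPM per kb of principal transcript on a log axis, ordered by level within each complex. Complex IV spans from COX4I1 at 156 to 3 genes with no read (open triangles, drawn at the bottom of the axis), while all 37 complex I genes lie between 3.47 and 164.

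Promoters of respiratory genes are known for binding sites of NRF1 and of the ETS factor GABP, and for YY1 sites. RefSeq promoters (GRCh38.p14, 250 bases before to 50 after the gene start) were matched for 79 of the 96 members and searched on both strands, with overlaps between motifs allowed. The NRF1 motif, GCGC, any base and then TGCGC, was in 22.8% of the 79, against 11.9% of 10767 promoters of genes tested and 6.28% of all 27305 promoters. The YY1 motif AANATGGCG was in 20.3%, against 6.74% and 3.37%. The ETS motif CCGGAAG was in 26.6%, against 18.9% and 10.7%. The SP1 motif GGGCGGG was in 25.3%, less than the 52.5% of genes tested and the 32.9% of all promoters, and TATAAA was in 8.86%, 5.75% and 12.0%. YY1 matches were in 10 of 32 promoters of complex I and in 1 of 15 of complex IV. A match is a description of the sequence and not a bound site.

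The promoters below give the range of these sequences: SDHA, with 4 NRF1 matches; NDUFS1 and NDUFB7, examples from complex I of genes with lower and higher values in SCML4 and groups that did not overlap; and pairs of complex IV genes of which the first had reads in all libraries and the second had few or none. Each line holds the 180 bases before the gene start, 5′ to 3′ on the gene's strand, with NRF1 or ETS matches in capitals.
SDHA (chr5:218140-218319, plus strand): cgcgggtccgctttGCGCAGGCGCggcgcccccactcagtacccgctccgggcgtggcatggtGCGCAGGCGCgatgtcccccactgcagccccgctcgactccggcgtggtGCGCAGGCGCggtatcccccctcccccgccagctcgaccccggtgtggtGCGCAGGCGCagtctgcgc
NDUFS1 (chr2:206159445-206159624, minus strand): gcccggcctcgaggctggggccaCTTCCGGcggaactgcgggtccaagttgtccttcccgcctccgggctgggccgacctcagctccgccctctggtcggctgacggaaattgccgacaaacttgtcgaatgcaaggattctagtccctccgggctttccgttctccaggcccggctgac
NDUFB7 (chr19:14572067-14572246, minus strand): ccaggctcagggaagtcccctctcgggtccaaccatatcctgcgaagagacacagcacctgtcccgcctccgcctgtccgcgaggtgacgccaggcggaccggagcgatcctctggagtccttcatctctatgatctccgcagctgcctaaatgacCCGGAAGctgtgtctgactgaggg
COX6A1 (chr12:120437933-120438112, plus strand): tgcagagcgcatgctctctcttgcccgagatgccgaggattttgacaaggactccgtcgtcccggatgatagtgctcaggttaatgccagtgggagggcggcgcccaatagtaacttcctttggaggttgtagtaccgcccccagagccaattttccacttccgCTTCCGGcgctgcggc
COX6A2 (chr16:31428361-31428540, minus strand): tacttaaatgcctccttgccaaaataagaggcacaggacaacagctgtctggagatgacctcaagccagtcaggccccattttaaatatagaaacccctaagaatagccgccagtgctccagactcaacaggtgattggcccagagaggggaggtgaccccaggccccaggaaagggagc
COX8A (chr11:63974440-63974619, plus strand): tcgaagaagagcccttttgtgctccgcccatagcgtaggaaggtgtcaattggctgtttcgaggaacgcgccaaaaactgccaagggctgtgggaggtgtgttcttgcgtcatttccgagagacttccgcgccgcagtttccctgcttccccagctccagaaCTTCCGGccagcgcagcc
COX8C (chr14:93347002-93347181, plus strand): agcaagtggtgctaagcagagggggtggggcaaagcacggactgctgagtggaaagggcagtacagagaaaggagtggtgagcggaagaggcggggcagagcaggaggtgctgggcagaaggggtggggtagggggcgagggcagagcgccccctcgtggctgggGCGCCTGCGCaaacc
SDHA holds NRF1 matches that start at -166, -117, -68 and -19, an even step of 49 bases, where -1 is the base before the gene start. NDUFS1 has an ETS match at -157, NDUFB7 at -24, COX6A1 at -16 and COX8A at -18. COX6A2, at 0 reads in every library, has neither motif in these 180 bases, and COX8C, with 1 read in all, has an NRF1 match at -15.

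Complex I, the NADH dehydrogenase, had 24 of 37 members with a positive difference and a median of 0.05, and its summed level was 1523, 1543 and 1606 CPM in EV against 1642, 1577 and 1520 in SCML4. The summed levels of the groups overlapped. Without EV replicate 1 the count was 21 of 37 and the median 0.02, with 51.3% of all genes positive in that fit. With reads corrected for GC content and length it was also 21 of 37, with a median of 0.01. Parts of the complex differed in sign. Of the 7 core subunits, which include those with the flavin and the iron-sulphur clusters, 2 had a positive difference and the median was -0.05, while of the 11 genes of the B series, which lie mostly in the membrane arm, 9 did and the median was 0.10. Without EV replicate 1 these were 3 of 7 with a median of -0.11 and 8 of 11 with 0.10. With pseudogene rows added the B series had 9 of 11 with a median of 0.04, and the difference between these parts was not tested. Of the 19 other supernumerary subunits, 13 were positive, and 10 without that library.

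NDUFS1, the largest subunit and holder of iron-sulphur clusters, was at 149, 138 and 136 CPM in EV and 124, 131 and 122 in SCML4. All EV values lay above all SCML4 values, the difference was -0.16 (95% interval -0.31 to -0.01), and the unadjusted p was 0.038 (adjusted p = 0.905, limma-trend). NDUFS8, another iron-sulphur core subunit, was at 65.3, 64.1 and 72.6 CPM in EV and 73.7, 75.9 and 83.3 in SCML4, with a difference of 0.21 (95% interval 0.02 to 0.39) and an unadjusted p of 0.036. Here all SCML4 values lay above EV, so that these core subunits had differences of opposite sign. With reads corrected for GC content and length, the difference was 0.08 for NDUFS8 and -0.09 for NDUFS1. NDUFV1, the flavoprotein that oxidises NADH, was at 130.3, 144 and 142 CPM in EV and 152, 142 and 142 in SCML4. Its groups overlapped.

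NDUFB7, a subunit of the membrane arm, was at 27.1, 36.6 and 39.6 CPM in EV and 49.6, 43.4 and 43.1 in SCML4. Its lowest value was in EV replicate 1, its groups did not overlap, and the difference was 0.41 (95% interval 0.06 to 0.77), or 0.25 without that library. The same held for its B-series partner NDUFB11, at 45.5, 61.6 and 61.5 CPM in EV and 69.9, 68.9 and 66.01 in SCML4. Its difference was 0.29 (95% interval -0.01 to 0.60), and 0.15 without EV replicate 1. After the GC and length correction these differences were 0.27 for NDUFB7 and 0.19 for NDUFB11. NDUFA1, a small membrane-arm subunit encoded on the X chromosome, was at 10.7, 11.3 and 12.4 CPM in EV and 18.3, 16.5 and 12.3 in SCML4, with a difference of 0.44 (95% interval 0.07 to 0.80). SCML4 replicate 3 lay within the EV range. NDUFA10, a subunit of the membrane arm, was at 132, 132 and 124 CPM in EV and 108, 119 and 123 in SCML4 and was, with NDUFS1, the other member whose EV values all lay above SCML4. NDUFS5, the complex I gene of highest level per kb, was at 108, 70.03 and 106 CPM in EV and 107, 82.5 and 66.01 in SCML4, values that varied more within each group than between them.

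Over all complexes the groups did not overlap in 8 of 90 members (8.89%), against 11.3% of all genes tested. In 6 of them SCML4 was higher (NDUFS8, NDUFB7, NDUFB11, UQCRC2, ATP5F1B and ATP5PD), and in 2 it was lower (NDUFS1 and NDUFA10). Of all genes, 6.02% were higher without overlap and 5.27% lower. The members' shares were near these backgrounds.

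**Figure D3:**
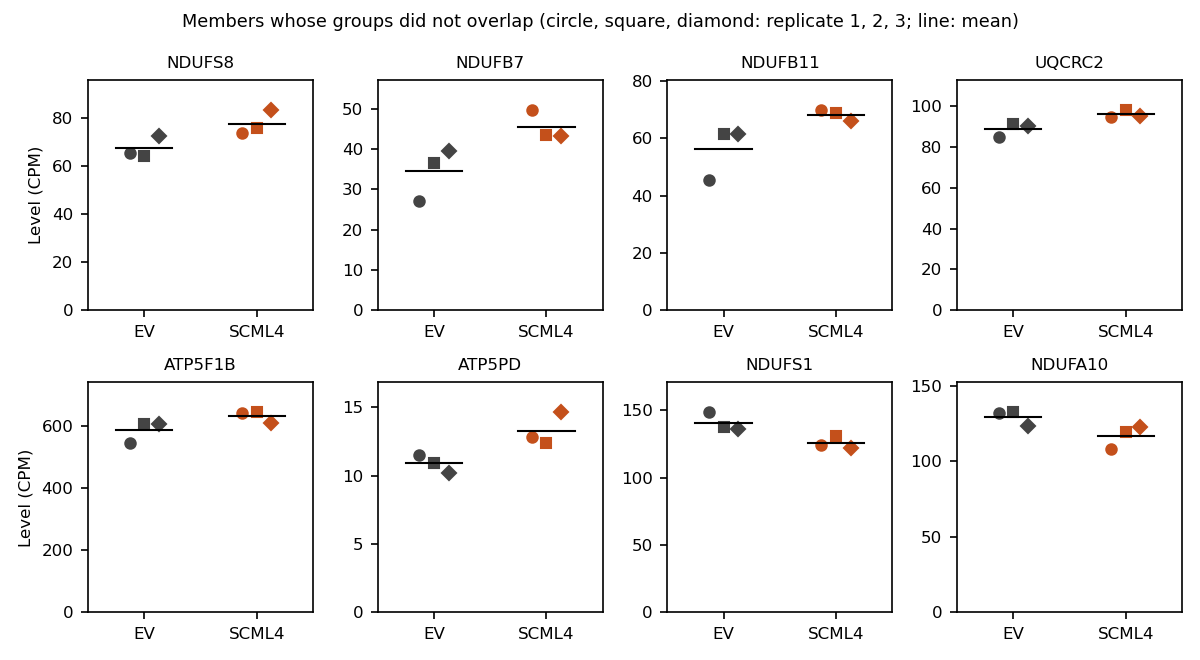
Level in CPM (y axis, from 0) of the 8 members whose EV and SCML4 values did not overlap, with replicates 1, 2 and 3 as circle, square and diamond and the group mean as a line. EV replicate 1 is the lowest library for NDUFB7, NDUFB11, UQCRC2 and ATP5F1B.

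Complex II, the succinate dehydrogenase, also a tricarboxylic acid cycle enzyme, had summed levels of 119, 114 and 111 CPM in EV and 120, 121 and 115 in SCML4. Of its 4 genes 3 had a positive difference, with a median of 0.06, and 3 of 4 with 0.08 without EV replicate 1. SDHB, the iron-sulphur subunit, was at 17.03, 19.8 and 22.2 CPM in EV and 26.9, 26.3 and 21.6 in SCML4, with a difference of 0.24 (95% interval -0.07 to 0.55); SCML4 replicate 3 lay within the EV range. SDHA, the flavoprotein that oxidises succinate, was at 20.3, 23.6 and 21.5 CPM in EV and 21.6, 21.5 and 28.7 in SCML4, with a difference of 0.09 (95% interval -0.22 to 0.41). Its highest value was in SCML4 replicate 3, and without that library the difference was -0.01. SDHD, a membrane anchor, was at 67.2, 60.1 and 56.5 CPM in EV and 58.4, 60.2 and 53.4 in SCML4, with a difference of -0.09 (95% interval -0.31 to 0.14), or -0.02 without EV replicate 1.

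Complex III, which carries electrons from ubiquinol to cytochrome c, had summed levels of 497, 610 and 616 CPM in EV and 633, 580 and 579 in SCML4. Of its 9 genes 7 had a positive difference, with a median of 0.07. Without EV replicate 1, whose sum was the lowest, 4 of 9 did and the median was -0.02. UQCRC2, a core protein, was at 85.1, 91.5 and 90.5 CPM in EV and 94.9, 98.2 and 95.2 in SCML4, with groups apart and a difference of 0.10 (95% interval -0.07 to 0.28). The other core protein, UQCRC1, was at 67.6, 65.8 and 71.5 CPM in EV and 83.8, 70.3 and 66.3 in SCML4, with a difference of 0.09 (95% interval -0.16 to 0.34) and overlapping groups. Without SCML4 replicate 1, its highest library, the difference was 0.0012. UQCRFS1, the Rieske iron-sulphur protein, was at 30.8, 45.8 and 37.7 CPM in EV and 34.3, 38.99 and 37.2 in SCML4, also overlapping. UQCRH, the hinge protein, was at 51.5, 43.6 and 52.6 CPM in EV and 67.6, 62.5 and 42.6 in SCML4, with a difference of 0.19 (95% interval -0.23 to 0.61), which ranged from 0.07 without SCML4 replicate 1 to 0.38 without SCML4 replicate 3. Its intronless copy UQCRHL had more reads than UQCRH in every library, at 100.5, 207 and 183 CPM in EV and 172, 138 and 188 in SCML4, and the widest spread within groups of the members with at least 10 reads. Reads of this pair could be divided between them by the counting, so both are uncertain.

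Complex IV, the cytochrome c oxidase, had the members with the most uniform sign: 12 of the 13 tested had a positive difference (92.3%, against 51.7% of all genes), with a median of 0.16. None of the 13 had an unadjusted p under 0.05 in limma-trend and none had groups apart. In limma-voom on the reads with library weights, 3 of 12 had an unadjusted p under 0.05, and the smallest adjusted p was 0.359. Of the 13477 genes tested in both fits, 1150 had an unadjusted p under 0.05 there. The summed level was 440, 434 and 471 CPM in EV and 532, 500 and 467 in SCML4, so that SCML4 replicate 3 lay below EV replicate 3 and the groups overlapped. Without EV replicate 1 the count was 11 of 13 and the median 0.15. With each library's reads corrected for GC and length it was 11 of 12 with a median of 0.14 (50.9% of all genes positive), and with the reads of pseudogene rows added it was 10 of 12 with 0.13. The 4 subunits that have a single form, COX5A, COX5B, COX6C and COX7C, had a median of 0.24, and 4 of 4 were positive in each of these fits. Subunits of a complex share libraries, so these counts are not independent observations.

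COX7C was at 25.7, 22.3 and 28.6 CPM in EV and 31.99, 35.2 and 27.5 in SCML4, with a difference of 0.28 (95% interval -0.03 to 0.58). COX5A was at 36.5, 38.8 and 43.1 CPM in EV and 47.8, 52.1 and 40.99 in SCML4, with a difference of 0.24 (95% interval -0.02 to 0.51) and an unadjusted p of 0.067. COX5B was at 26.7, 34.3 and 31.3 CPM in EV and 40.2, 33.3 and 35.9 in SCML4, with a difference of 0.24 (95% interval -0.04 to 0.52), or 0.14 without EV replicate 1. In each of these genes 2 SCML4 libraries lay above every EV library and the other lay within the EV range, and the adjusted p in limma-trend was 0.905. All 3 intervals included 0. COX4I1, the nuclear subunit of highest level per kb in the complex, was at 138, 115 and 139.6 CPM in EV and 154, 138 and 132 in SCML4.

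**Figure D4:**
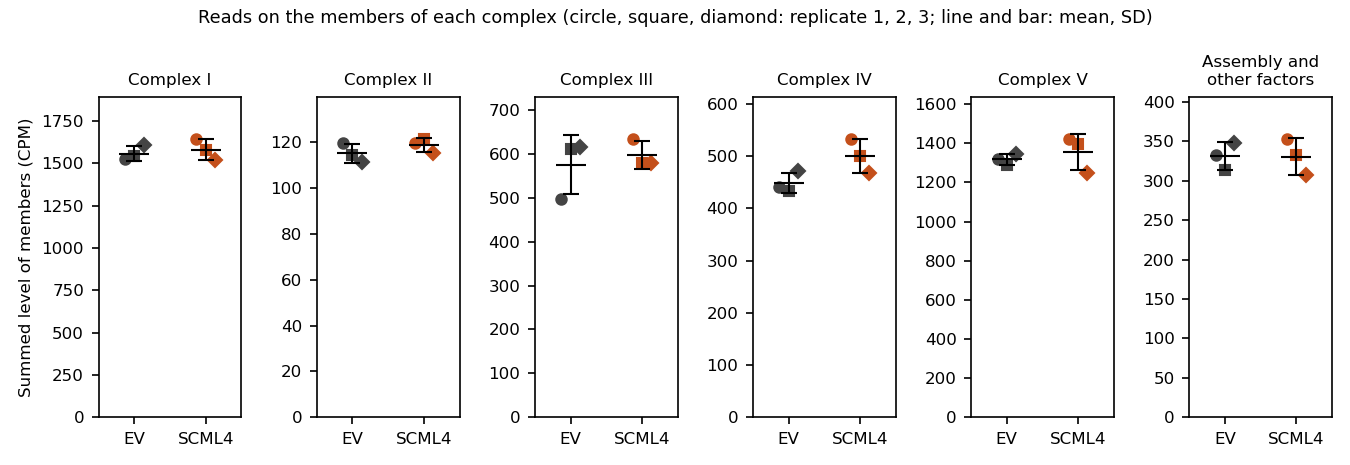
Summed level of the members of each complex in CPM (y axis, from 0) in the 3 EV and 3 SCML4 libraries, with replicates 1, 2 and 3 as circle, square and diamond and the group mean and SD as a line and bar. The groups overlap in all 6 panels; SCML4 replicate 1 is the highest library for complexes I, III, IV and V.

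Several complex IV subunits exist as a common isoform and an isoform known from muscle, lung, testis or hypoxic cells. The common forms carried nearly all reads in these cells. COX4I2, known from lung, and COX6A2, known from heart and skeletal muscle, had 0 reads in every library, as had the testis isoform COX7B2. COX8C had 1 read, in EV replicate 1. COX7A1, another muscle isoform, lay at 0.11 to 0.335 CPM and COX6B2, known from testis, at 0.208 to 0.782 CPM, values near the level that a count of 0 allows. NDUFA4L2, known as a hypoxia-induced relative of NDUFA4, was the alternative isoform with the most reads, at 2.91, 5.13 and 5.27 CPM in EV and 4.85, 4.84 and 3.24 in SCML4. Its partner NDUFA4 was at 29.3, 23.8 and 25.7 CPM in EV and 33.9, 29.02 and 25.4 in SCML4. The other common forms had these levels: COX6B1 lay between 10.5 and 15.96 CPM, COX7A2 between 20.1 and 27.03, COX7B between 15.8 and 24.3 and COX8A between 56.8 and 74.04. COX6A1 lay only between 3.51 and 6.14 CPM in its own row. Neither NDUFA4L2 nor COX6B2 differed between groups beyond the spread of the libraries.

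Complex V, the ATP synthase, had 5 of 17 tested members with a positive difference (29.4%) and a median of -0.06, while its summed level was 1319, 1287 and 1347 CPM in EV and 1421, 1394 and 1250 in SCML4. The mean of the sums was higher in SCML4, unlike most members, since ATP5F1B, by far the most abundant of them, had a positive difference. The low count rested on few libraries: it was 9 of 17 with a median of 0.04 without EV replicate 1, and 11 of 17 with a median of 0.05 without SCML4 replicate 3. ATP5F1B, the catalytic beta subunit, was at 543, 606 and 606 CPM in EV and 641, 642 and 609 in SCML4. All SCML4 values lay above EV, with a difference of 0.11 (95% interval -0.06 to 0.28), or 0.06 without EV replicate 1. ATP5F1A, the alpha subunit that alternates with beta in the catalytic head, was at 238, 161 and 182 CPM in EV and 196, 201 and 161 in SCML4, with overlapping groups.

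ATP5PD, a subunit of the peripheral stalk that holds the head still, had the smallest unadjusted p of all members, 0.021. It was at 11.5, 10.9 and 10.2 CPM in EV and 12.8, 12.4 and 14.6 in SCML4, and its groups did not overlap. The difference was 0.28 (95% interval 0.06 to 0.49), or 0.32 without EV replicate 1. Rows named as its pseudogenes held 47.7% of the reads on both, so the level in its own row is uncertain to that extent. With those reads added, ATP5PD was at 21.5, 20.7 and 22.0 CPM in EV and 26.1, 22.8 and 25.4 in SCML4. ATP5MJ, a small membrane subunit, was at 100.4, 97.3 and 101 CPM in EV and 99.2, 92.1 and 86.8 in SCML4, with a difference of -0.10 (95% interval -0.26 to 0.05). The c ring, the rotor that protons turn, is encoded by 3 genes that give the same mature protein. ATP5MC1 was at 23.4, 26.9 and 27.7 CPM in EV and 27.5, 25.4 and 16.98 in SCML4. ATP5MC2 was at 64.99, 51.96 and 61.98 CPM in EV and 66.9, 72.4 and 55.1 in SCML4. ATP5MC3 was at 67.3, 83.96 and 85.4 CPM in EV and 86.5, 70.9 and 69.6 in SCML4. Groups overlapped for each of the 3, and ATP5MC2 and ATP5MC3 together held most of their reads. ATP5MGL, a copy of the membrane subunit gene ATP5MG, lay between 0 and 0.517 CPM.

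Of the 10 assembly and other factors, 5 had a positive difference, with a median of -0.003 (6 of 10 and 0.01 without EV replicate 1), and the summed level was 332, 313 and 348 CPM in EV and 353, 332 and 307 in SCML4. ATP5IF1, the inhibitor that stops the ATP synthase from hydrolysing ATP, had the highest level per kb of these, at 128. It was at 64.99, 64.1 and 63.9 CPM in EV and 62.995, 60.5 and 64.2 in SCML4, and its 6 libraries lay closer together than those of most members. The complex I assembly factor NDUFAF4 was at 45.5, 35.5 and 44.6 CPM in EV and 39.2, 38.1 and 35.4 in SCML4, with a difference of -0.15 (95% interval -0.41 to 0.11), or -0.08 without EV replicate 1. NDUFAF3, its partner in assembly, was at 39.1, 47.7 and 46.4 CPM in EV and 52.6, 46.3 and 43.9 in SCML4, with a difference of 0.10 (95% interval -0.15 to 0.36), or 0.01 without EV replicate 1. NDUFAF5, an enzyme that modifies NDUFS7 during assembly, was at 17.5, 13.2 and 16.7 CPM in EV and 14.01, 16.4 and 12.96 in SCML4, with a difference of -0.12 (95% interval -0.46 to 0.21), or -0.04 without EV replicate 1. Groups overlapped for all of these.

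Other genes of the pathway likewise held no gene past the threshold. Of 37 respiratory assembly factors tested beyond the symbol rule, 0 passed, 21 were positive and the median was 0.02. FOXRED1, a complex I assembly factor, was at 77.9, 78.8 and 83.6 CPM in EV and 71.7, 67.4 and 63.5 in SCML4, with groups apart and a difference of -0.25 (95% interval -0.42 to -0.08) (unadjusted p = 0.012). COX18, which inserts a mitochondrially made complex IV subunit into the membrane, was at 58.1, 57.1 and 62.8 CPM in EV and 64.5, 69.6 and 66.2 in SCML4, with a difference of 0.17 (95% interval 0.000 to 0.34) and SCML4 values all above EV. Of 22 electron carriers, their donors and adenine nucleotide carriers, 11 were positive and the median was -0.01. CYCS, cytochrome c, was at 191, 185 and 166 CPM in EV and 169.9, 165 and 146 in SCML4. CYC1, a cytochrome of complex III, was at 35.3, 52.6 and 53.3 CPM in EV and 60.5, 59.7 and 49.1 in SCML4. EV replicate 1 was the lowest library for CYC1 and its groups overlapped. Of 13 tricarboxylic acid cycle enzymes, 7 were positive, with a median of 0.03. SUCLG2 was at 24.2, 19.7 and 23.4 CPM in EV and 20.96, 20.3 and 17.8 in SCML4 and SUCLG1 at 44.3, 38.4 and 41.5 CPM in EV and 50.5, 43.9 and 41.4 in SCML4, both subunits of succinyl-CoA ligase with overlapping groups.

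Of 15 regulators of respiratory genes tested, 3 were positive, with a median of -0.04. The coactivator PPARGC1B was at 76.5, 87.6 and 91.4 CPM in EV and 82.9, 69.9 and 72.4 in SCML4, while its relative PPARGC1A had 0 reads in every library. The nuclear receptor ESRRA was at 30.9, 38.7 and 34.9 CPM in EV and 32.7, 31.8 and 32.7 in SCML4. Groups overlapped for PPARGC1B and ESRRA.

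Of the 13 subunits encoded by mitochondrial DNA, 3 had a positive difference, the median was -0.09 and 0 passed the threshold. Their summed level was 52820, 54292 and 52226 CPM in EV and 48989, 50246 and 49860 in SCML4, and the groups did not overlap. Among single genes tested, 11.3% had groups that did not overlap, and no such share was worked out for sums. The sums of the T cell line markers did not overlap either, and there SCML4 was higher. MT-CO1, the catalytic subunit of complex IV, was at 10698, 11094 and 10599 CPM in EV and 9659, 10036 and 10017 in SCML4, with a difference of -0.12 (95% interval -0.25 to 0.001) (unadjusted p = 0.051). MT-ND4, a proton-pumping subunit of complex I, was at 9492, 8400 and 8366 CPM in EV and 7915, 8050 and 7681 in SCML4, with a difference of -0.15 (95% interval -0.30 to -0.001) (unadjusted p = 0.049). When each library was left out in turn, the MT-ND4 difference ranged from -0.18 to -0.09. Over all alternative fits the end nearest 0 was -1.1e-15, which is 0 up to rounding. Quantile normalization, among the scalings tried, gives a difference of 0 to any gene of the same rank in every library. That end of the range is therefore no test of the difference. MT-ND4 was the only one of the 13 with an unadjusted p under 0.05, a share near the 5.09% of all genes. The nuclear members of complex IV lay mostly on the other side of 0, with a median of 0.16, while those of complex V had a median of -0.06. The mitochondrial complex IV subunits beside MT-CO1 were near 0, MT-CO2 at -0.04 and MT-CO3 at 0.02. The difference between nuclear and mitochondrial subunits was not tested.

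Many of these genes have processed pseudogenes whose sequence is close to the transcript, and the table lists them as rows of their own. In 51 of the 96 members there was at least 1 such row, 181 rows in all, and they held 97948 reads beside the 249984 on the members, or 28.2% of both. In 14 members the pseudogene rows held at least 50% of the reads. COX6A1 was the furthest, with 98.5%, since COX6A1P2 alone had 16772 reads over the 6 libraries. NDUFV2 had 90.8%, ATP5F1E and ATP5MK 92.0% each, COX7A2 84.5%, NDUFA4 83.6%, ATP5F1C 80.0% and SDHA 76.3%. The levels of these members in their own rows are uncertain to that extent. With the reads of all such rows added, COX6A1 was at 259, 287 and 309 CPM in EV and 346, 306 and 298 in SCML4, with overlapping groups, and the difference of SDHA was -0.12 on the log2(CPM + 1) scale. With these reads added, 0 members passed the threshold and 56 of 89 were positive. In addition, 21 members had at least 20% of their transcript under exons of another gene in GENCODE 29, such as NDUFV2 with 82.9% and NDUFB2 with 83.4%, and the sources used here do not say whether reads were counted by strand.

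**Figure D5:**
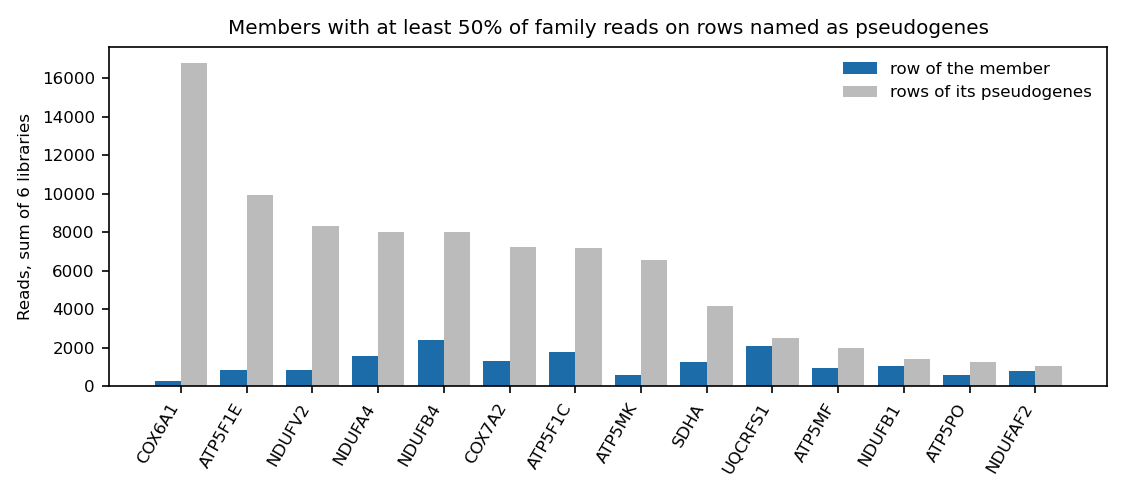
Reads summed over the 6 libraries (y axis, from 0) on the row of a member (blue) and on the rows named as its pseudogenes (grey) for the 14 members with at least 50% of reads on pseudogene rows. The grey bar of COX6A1 is the tallest, its own row holding 1.5% of the reads.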

How the data were processed

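RNA-seq of 6 Jurkat libraries (3 EV, 3 SCML4) was deposited by the authors as 1 table of FPKM, reads scaled by gene length and library size, per the file headers. Per the labels' protocols, TRIzol extraction was followed by a SMARTer mRNA-seq library kit. Per the submitters' processing notes, FastQC, STAR, SAMtools and hg19 were used; a counting tool or annotation is not given in the sources used here.

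Members and gene lists were chosen with earlier results of these data known. SCML4 was compared with EV on log2(FPKM + 1) by limma-trend (limma 3.58.1, R 4.3.3) over 15357 genes with a mean of at least 0.5 FPKM, with Benjamini-Hochberg adjustment over all of them and a threshold of 0.05. Differences on this scale understate the change of genes with low FPKM, and p-values rest on a variance trend in FPKM, which carries the wrong gene lengths. Groups and replicate numbers came from the sample titles.

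Reads were recovered from the FPKM steps: 100% of 23897 genes above 0 came out whole within 0.002 of a read. If all counts of a gene share a divisor, this stays hidden and lowers its CPM, not its ratios. CPM, lengths and GC content (GENCODE 29, for names, lengths and overlaps only) and RefSeq promoters (GRCh38.p14) were joined by symbol. limma fits of the reads (mean of at least 10), with library weights or a correction for GC content and length, were alternatives, as were other pseudocounts, filters and scalings, a replicate block and leaving out each library. Adding the pseudogene rows was chosen after seeing the data. Only the recovery of reads and the main limma-trend fit were run on simulated data. The simulated libraries had the same scatter throughout and none was unlike the others, as EV replicate 1 was here.

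Named were the 3 members of smallest p in each complex, its most abundant member, the catalytic core subunits, the alternative isoforms with their partners, the c ring, and 2 genes of smallest p in each other list. Members with groups apart (NDUFB11, NDUFA10, UQCRC2), UQCRHL, ATP5IF1 and ATP5MGL where no rule names them, and the genes of the pseudogene and length paragraphs were chosen after their values were seen.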

Additional observations from a re-analysis of the deposited data

How the results depend on the processing

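No member passed an adjusted p of 0.05 in any of the 21 alternative fits by limma, the smallest adjusted p being 0.359, in the weighted fit of the reads, where 14 of 14149 genes (0.0989%) passed. Differences were recomputed for 27 named genes, nearly all chosen for a small unadjusted p in these same data. Few changes of sign were therefore to be expected, and the other genes named in the text were not among the 27. Of the 565 recomputed differences, 6 had the opposite sign and 0 were past the threshold. These were NDUFAF3 at -0.0062 after the correction for GC content and length, with and without the replicate block; NDUFAF5 at 0.012 with library weights and 0.0024 in the weighted fit of the reads; and SDHA at -0.12 with pseudogene rows added and -0.012 without SCML4 replicate 3, its range being -0.012 to 0.146 when each library was left out in turn.

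Among all genes 0 were called, and 1 was with library weights, 7 with no filter, 4 with no intensity trend, 1 on log2 CPM, 3 after the GC and length correction, 1 with pseudogene rows added, 1 in limma-voom and 14 in its weighted form. Deviations of same-numbered libraries correlated at -0.019, -0.047 and -0.010. No pairing by number was seen, and the numbers were not used in the comparison itself. With 3 libraries per group these correlations cannot exclude pairs, and the labels do not state any. In the fit with the replicate block, tried as an alternative, 0 genes and 0 members were called, 7 genes were together with the GC and length correction, and the members' median was 0.05.

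At a mean of at least 5 FPKM only SDHD was left of complex II, at -0.087, so that this value does not describe the complex. That filter acts on FPKM that carry the wrong gene lengths. The median of complex II was -0.029 with pseudogene rows added and 0.107 in the weighted fit of the reads. The median of complex V was 0.074 with library weights and 0.060 in the weighted fit of the reads, with 10 positive in each. When each library was left out in turn, the number of positive members ranged from 49 to 63 and their median from 0.011 to 0.102. Positive counts ranged from 21 to 26 in complex I, 2 to 3 in complex II, 4 to 7 in complex III, 11 to 13 in complex IV, 5 to 11 in complex V and 3 to 7 in the factors. Medians ranged from 0.018 to 0.080 in complex II, -0.016 to 0.114 in complex III, 0.114 to 0.198 in complex IV, -0.155 to 0.053 in complex V and -0.052 to 0.081 in the factors. The signs of the medians of complexes III and V and of the factors therefore rest on single libraries. The 7 members with fewer than 10 reads on average are limited by depth.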
